A study of Mus musculus with 4 samples.

Results

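The 38 Hox genes described here lie in the 4 clusters HoxA, HoxB, HoxC and HoxD. They were chosen by symbol, through the Ensembl identifiers of the GENCODE M21 annotation of GRCm38 (also called mm10), and make up 38 of the 52636 genes measured. No expression value entered that choice, but it was made with earlier results of these data known. RNA of the whole lung was sequenced at embryonic day 14.5 in C57BL/6 mice, with 2 control libraries (genotype wild type) and 2 libraries labelled Yap CKO. The series describes the latter as a conditional deletion of Yap in the epithelium only. YAP, which the Hippo kinases restrain, switches on target genes together with TEAD proteins. Neither Cre driver nor deleted exons are named in the labels, which also do not say whether the controls carried Cre or floxed alleles or whether libraries came from separate or pooled embryos. The p-values therefore measure only the spread between these libraries, which in the Yap CKO pair may be technical. The 2 controls differed in the sex-linked genes Xist and Ddx3y (values below), so they were not repeats of 1 RNA sample.

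Hox genes encode homeodomain transcription factors that give cells their position along the head-to-tail axis. Within a cluster the genes stand in the order in which they are used: those at the 3′ end (low paralog numbers) are expressed early and up to anterior levels, and those at the 5′ end (high numbers) late and in posterior structures such as the hindgut, the urogenital tract and the limb tips. Genes of 1 paralog group in different clusters descend from a common ancestral gene. In the lung Hox genes are expressed mainly in mesenchyme, and the Hox5 paralogs are needed for airway branching and the trachea.

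The level of a gene is given in normalized counts, which are reads divided by 1 factor per library, and levels of different genes are compared only per kb of exon. Depth was 17756301 to 21333878 reads per library, and 3 reads, the limit that a count of 0 allows, came to 2.80 to 3.51 normalized counts. Yap1 itself stood at 5686 and 3467 normalized counts in control 1 and control 2, and at 3209 and 4483 in Yap CKO 1 and Yap CKO 2. These groups overlapped (log2 difference -0.23, SE 0.25, adjusted p = 0.683, limma), so this gene did not check the labels in whole lung. Each difference below is between the libraries labelled Yap CKO and those labelled Control. The lung mesenchyme markers summed to 118830 to 155116 normalized counts per library and the lung epithelium markers to 19382 to 21749, with no marker of either list at 0 in any library.

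HoxA occupied 98.5 kb of chromosome 6 (52162417 to 52260880, minus strand, 10 genes). HoxB occupied 174 kb of chromosome 11 (96194316 to 96368256, 10 genes), HoxC 116 kb of chromosome 15 (102921103 to 103036852, 9 genes) and HoxD 96.8 kb of chromosome 2 (74668310 to 74765142, 9 genes), all on the plus strand. A mean of at least 10 normalized counts over the 4 libraries was asked for before a gene was tested, and 17 of the 38 Hox genes passed. Of the 22 genes in paralog groups 1 to 8, 16 passed, and of the 16 genes in groups 9 to 13 only Hoxb9 passed. By cluster, 6 genes of HoxA, 8 of HoxB, 2 of HoxC and 1 of HoxD passed.

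**Figure D1:**
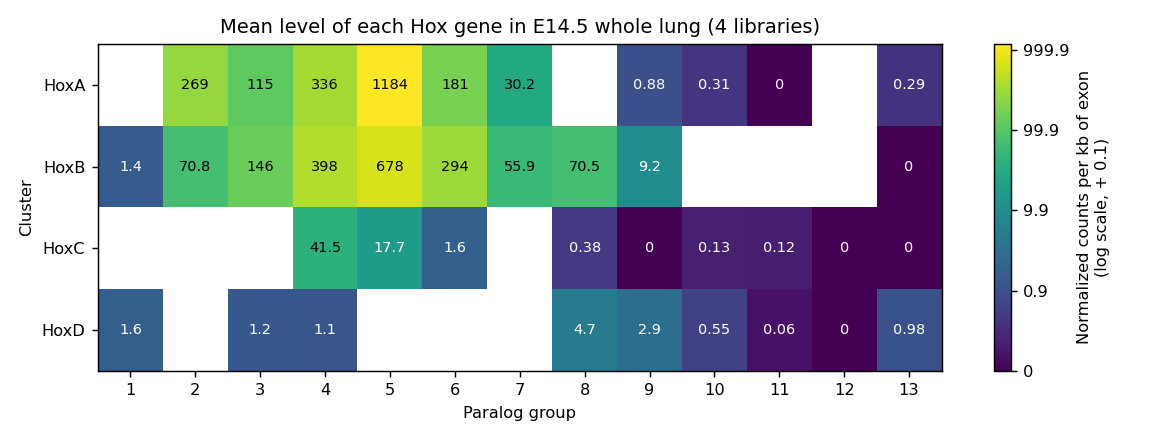
Mean level of each Hox gene over the 4 libraries, in normalized counts per kb of exon on a log colour scale, with clusters as lines and paralog groups as columns; blank squares hold no gene analysed here. The highest squares are Hoxa5 (1184) and Hoxb5 (678), and squares to the right of group 9 stay under 1.

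Hoxa5 was the highest of the 38 genes in every library, at 1118 to 1284 normalized counts per kb. Hoxb5 came next at 577 to 752 per kb, and neither range overlapped that of the gene after it. Together these 2 genes of paralog group 5 made up 44.5% to 51.5% of the summed Hox level per kb. Hoxb4 (mean 398 per kb), Hoxa4 (336), Hoxb6 (294), Hoxa2 (269), Hoxa6 (181), Hoxb3 (146) and Hoxa3 (115) followed, and in this stretch each gene's range overlapped that of its neighbour in the order. Hoxa3 and Hoxb2 (70.8) did not overlap. Hoxb8 (70.5), Hoxb7 (55.9), Hoxc4 (41.5), Hoxa7 (30.2), Hoxc5 (17.7), Hoxb9 (9.23) and Hoxd8 (4.70) came last, again with overlap between neighbours. Where exon bases shared with another gene were left out of the length, Hoxa4 and Hoxb4 changed places after Hoxb5, and Hoxb6 fell behind Hoxa2 and Hoxb3.

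HoxA and HoxB held nearly all of the Hox level. HoxA took 50.9% to 55.4% of the sum per kb in the 4 libraries and HoxB 42.2% to 47.1%. HoxC took 1.07% to 2.04% and HoxD 0.243% to 0.416%. Across the clusters, paralog group 5 took 44.8% to 52.3%, group 4 took 19.4% to 20.2%, and groups 9 to 13 together took 0.222% to 0.457%. The sum itself was 3985 and 3509 normalized counts per kb in control 1 and control 2, and 4452 and 3717 in Yap CKO 1 and Yap CKO 2, so the groups overlapped.

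**Figure D2:**
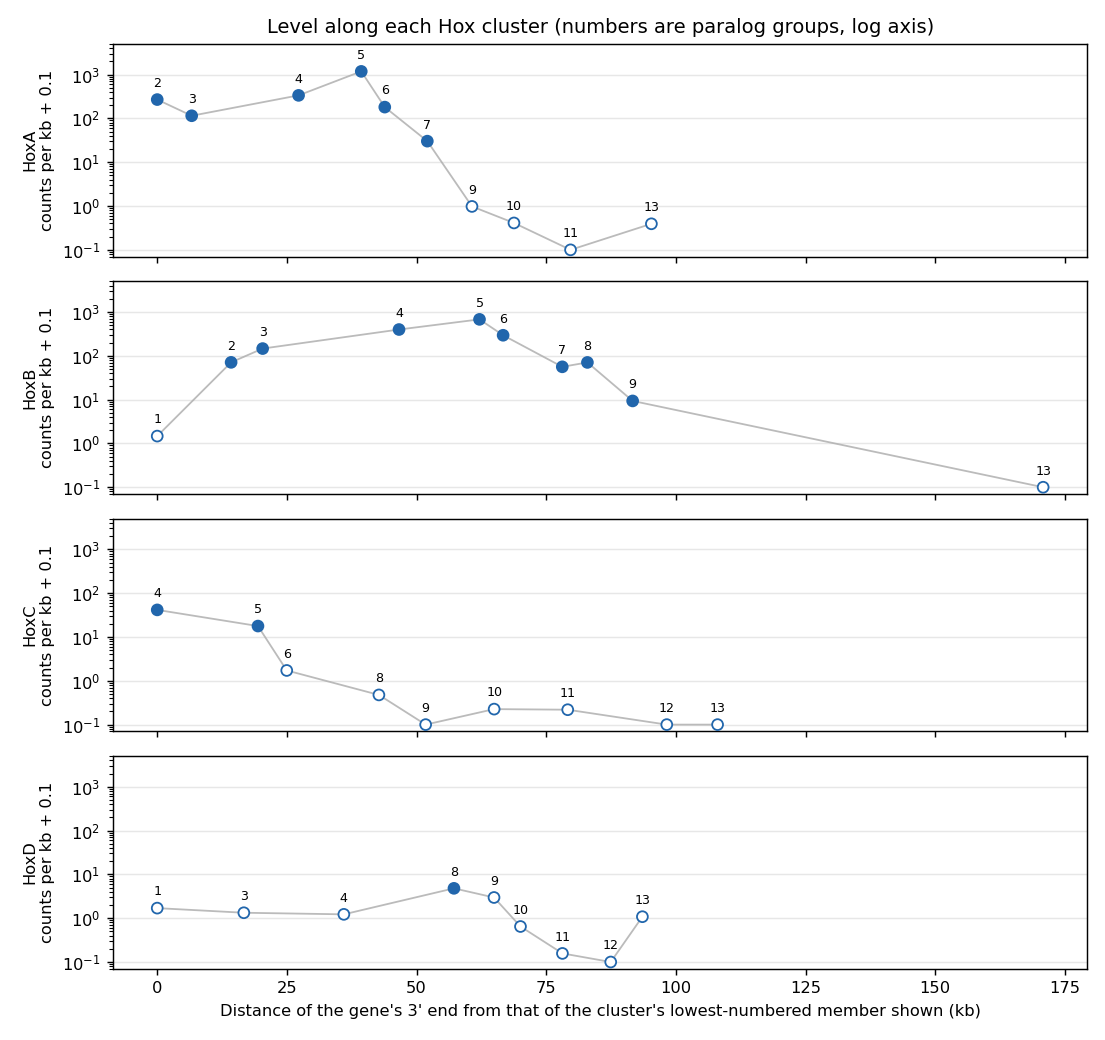
Mean level over the 4 libraries (normalized counts per kb of exon plus 0.1, log axis) against distance in kb from the lowest-numbered gene shown, 1 panel per cluster, with paralog groups as numbers; filled points are the genes that passed the filter. HoxA and HoxB peak at group 5 (1184 and 678 per kb) with lower points on either side, and in HoxC the highest point is group 4 (41.5).

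Ratios of levels per kb between HoxA and HoxB paralogs varied to different degrees. Hoxa2 stood at 3.20 to 4.22 times Hoxb2 in the 4 libraries, and Hoxa5 at 1.54 to 2.04 times Hoxb5. Hoxa3 stood at 0.723 to 0.838 times Hoxb3, Hoxa6 at 0.484 to 0.708 times Hoxb6, and Hoxa4 at 0.601 to 1.09 times Hoxb4. For Hoxa5 and Hoxb5 the ratio was 1.54 and 1.62 in the controls and 1.85 and 2.04 in the Yap CKO libraries, so the groups did not overlap. The ratio of Hoxa7 to Hoxb7 was 0.634 and 1.09 in the controls and 0.373 and 0.379 in the Yap CKO libraries, without overlap as well. For Hoxa6 and Hoxb6 it was 0.708 and 0.640 in the controls and 0.627 and 0.484 in the Yap CKO libraries, again without overlap. The ratios of Hoxa2, Hoxa3 and Hoxa4 to their HoxB paralogs overlapped between groups. These ratios were given no test, and for Hoxa6 and Hoxb6 the nearest values (0.640 and 0.627) lay close. Separation of 2 libraries from 2 is common: over all genes, both Yap CKO values lay above both controls for 25.2% and below them for 25.6%. No such share was computed for ratios, so their lack of overlap is given as values only.

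The 21 Hox genes below the filter had means of at most 6.13 normalized counts (Hoxd9), and the lowest mean that passed was 12.9 (Hoxd8). Hoxa11, Hoxb13, Hoxc9, Hoxc12, Hoxc13 and Hoxd12 had 0 reads in all 4 libraries. Hoxa13 had 3 reads over the 4 libraries, and Hoxc10, Hoxc11 and Hoxd11 had 1 each. The other 11 ranged from 4 reads (Hoxa10, Hoxc8 and Hoxd10) to 25 (Hoxd9, exact Poisson 95% interval 16.2 to 36.9). Between these ends were Hoxd13 (10), Hoxd1 (12), Hoxb1 (13), Hoxd4 (13), Hoxc6 (15), Hoxa9 (20) and Hoxd3 (21). The highest single value among the 21 was 12.1 normalized counts, of Hoxd3 in Yap CKO 2. No test between groups was run for these genes, as they lay below the filter, and such limits and intervals cover counting error only. In Hoxd3 and Hoxd4, 62.8% and 52.3% of exon bases are shared with other genes, so their reads cannot be assigned to 1 gene with certainty.

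The sequence upstream of the start site was compared between an abundant and a near-silent Hox gene, because cytosine-guanine (CpG) dinucleotides are dense at promoters that Polycomb complexes and MLL methyltransferases act on. RefSeq windows of GRCm38.p6 (250 bases before the start) matched 22 of the 38 genes, in 24 windows. Over all 32817 windows the median was 6 CpG. The 9 windows of Hox genes that passed the filter had a median of 12 (6 to 28), and the 15 windows of those that did not had a median of 13 (2 to 35). CpG number in this window thus spanned a like range in expressed and unexpressed Hox genes. Hoxa5, the most abundant, had 28 CpG (63.6% GC, chr6:52204588-52204837, minus strand), and Hoxa13, with 3 reads in all, had 35 (80.0% GC, chr6:52260881-52261130, minus strand). Both are printed 5′ to 3′ as read on the minus strand, with each CpG in capitals.
Hoxa5: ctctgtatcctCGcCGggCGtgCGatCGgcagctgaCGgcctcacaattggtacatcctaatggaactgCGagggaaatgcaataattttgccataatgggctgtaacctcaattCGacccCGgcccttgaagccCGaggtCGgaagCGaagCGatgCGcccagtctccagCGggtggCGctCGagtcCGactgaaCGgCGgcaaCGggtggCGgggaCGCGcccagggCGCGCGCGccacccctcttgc
Hoxa13: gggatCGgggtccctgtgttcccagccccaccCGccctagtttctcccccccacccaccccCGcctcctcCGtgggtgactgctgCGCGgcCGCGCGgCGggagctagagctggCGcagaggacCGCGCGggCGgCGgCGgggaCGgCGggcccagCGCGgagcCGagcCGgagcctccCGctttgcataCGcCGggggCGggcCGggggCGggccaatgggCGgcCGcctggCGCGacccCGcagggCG

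Hoxb4 is known to be induced by retinoic acid, and its window was read for AGGTCA, the half-site that retinoic acid receptors bind. The window (chr11:96318017-96318266, plus strand, 5′ to 3′) held 1 match on the opposite strand, starting 81 bases before the start site and shown in capitals.
Hoxb4: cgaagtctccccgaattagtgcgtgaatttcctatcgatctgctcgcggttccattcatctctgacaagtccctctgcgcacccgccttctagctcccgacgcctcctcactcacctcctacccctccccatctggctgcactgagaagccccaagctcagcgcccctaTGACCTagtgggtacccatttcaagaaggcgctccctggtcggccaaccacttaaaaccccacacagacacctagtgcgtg
Searched on both strands, AGGTCA was found in 6 of the 24 Hox windows (Hoxb4, Hoxc4, Hoxd3, Hoxd4, Hoxd8 and Hoxd10) and in 14.0% of all windows. TGATTNAT, bound by complexes of HOX and PBX, was found in 2 (Hoxa2 and Hoxd11) and in 2.83% of all windows. TAATTA, a homeodomain core, was in 2 windows, both of Hoxd11, and in 4.85% of all. TTTATG, which caudal (CDX) proteins bind, was in 5 and in 10.8% of all, and CATTCC, the site of TEAD, the DNA-binding partner of YAP, was in 1 (Hoxa9) and in 12.6% of all. GCCAT, within the YY1 motif, was in 11 and in 32.9% of all, and the TATA box TATAAA was in 4 and in 12.4% of all. A match describes these letters only.

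In the comparison of groups, none of the 17 tested Hox genes was called at an adjusted p under 0.05 (limma on log2(normalized count + 1), Benjamini-Hochberg over 19472 genes), against 2.33% of all genes tested (1.19% higher and 1.15% lower). edgeR's quasi-likelihood test and DESeq2 called none either. At an unadjusted p under 0.05, Hoxa2 and Hoxb7 passed in limma, both higher in Yap CKO, 2 Hox genes passed in edgeR and 1 in DESeq2; in limma 18.9% of all genes did, 9.34% higher and 9.52% lower. The log2 difference was above 0 for 12 of the 17 and below 0 for 5 (49.4% of all genes were above 0), with a median of 0.27 against -0.0050 for all genes. On the log2 scale the differences ran from -0.72 (Hoxc5) to 0.93 (Hoxb9). Both Yap CKO values lay above both control values for 3 Hox genes (17.6%, against 25.2% of all genes) and below them for 1 (5.88%, against 25.6%), and 13 overlapped. Neither share exceeded the background. In a whole-organ library, fewer cells of a type and less RNA per cell cannot be told apart.

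**Figure D3:**
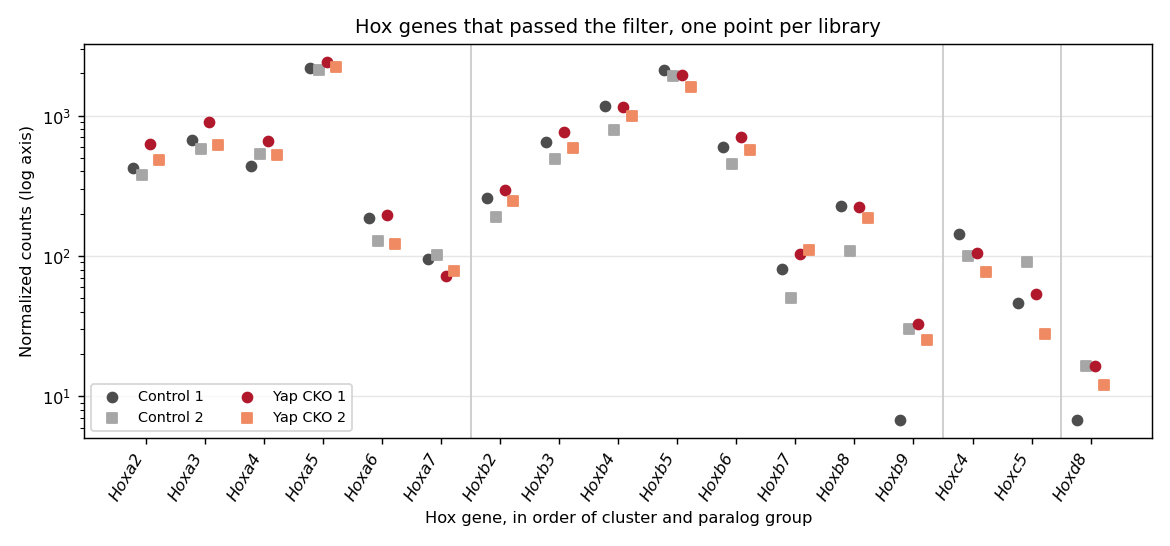
Normalized counts (log axis) of the 17 Hox genes that passed the filter, 1 point per library, ordered by cluster and paralog group. Hoxa5 and Hoxb5 stand highest in each library (1607 to 2409), and Hoxb9 and Hoxd8 are lowest in control 1 (6.78 each).

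In HoxA, Hoxa2, which patterns the hindbrain and the second pharyngeal arch, measured 420 and 378 normalized counts in control 1 and control 2, and 630 and 484 in Yap CKO 1 and Yap CKO 2. Both Yap CKO libraries were higher than both controls. The log2 difference was 0.47 (SE 0.16, unadjusted p 0.0226, adjusted p = 0.187, limma), which did not pass. Hoxa5, which in the lung mesenchyme governs airway and tracheal form, measured 2174 and 2098 in the controls and 2409 and 2210 in the Yap CKO libraries. The groups did not overlap, but the difference was small (log2 0.11, SE 0.093, adjusted p = 0.577, limma). Hoxa7 was the only tested Hox gene with both Yap CKO values (72.1 and 78.3) below both controls (95.0 and 102), and its log2 difference was -0.38 (adjusted p = 0.377, limma).

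The other HoxA genes overlapped between groups. Hoxa3, which acts in the pharyngeal pouches and the thymus, measured 665 and 577 normalized counts in the controls and 906 and 617 in the Yap CKO libraries. Hoxa4 measured 434 and 533, and then 654 and 519. Hoxa6 measured 187 and 129, and then 195 and 122, so that each group held 1 high and 1 low library. The median log2 difference of the 6 HoxA genes was 0.19, with 4 above 0, and leaving out Yap CKO 1 lowered it to 0.022 while leaving out Yap CKO 2 raised it to 0.39.

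In HoxB, Hoxb5, which acts with its paralogs in the lung mesenchyme and in enteric nerve precursors, measured 2096 and 1919 normalized counts in the controls and 1937 and 1607 in the Yap CKO libraries. Yap CKO 1 lay between the controls, so the groups overlapped (log2 -0.18, SE 0.12, adjusted p = 0.466, limma). Hoxb7 measured 80.4 and 50.3 in the controls and 104 and 111 in the Yap CKO libraries, without overlap. Its log2 difference of 0.75 (SE 0.28, unadjusted p 0.0328, adjusted p = 0.221, limma) did not pass.

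Hoxb2, Hoxb3, Hoxb4, Hoxb6 and Hoxb8 shared a pattern in which control 2 was the lowest library. Hoxb4 measured 1163 and 787 normalized counts in control 1 and control 2, and 1143 and 993 in Yap CKO 1 and Yap CKO 2. Hoxb8 measured 226 and 108, and then 224 and 185. For both, control 1 and Yap CKO 1 were alike, and the groups overlapped. Hoxb3 measured 650 and 488, and then 764 and 583, and 52.9% of its exon bases are shared with the antisense gene Hoxb3os. Hoxb2 measured 258 and 189, and then 293 and 247, and Hoxb6 594 and 451, and then 700 and 567. The median log2 difference of the 8 tested HoxB genes was 0.28, with 7 above 0. Leaving out control 1 or control 2 gave a median of 0.47 or 0.050, and leaving out Yap CKO 1 or Yap CKO 2 gave 0.14 or 0.44.

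Leaving out 1 library leaves a group of 1, whose spread is then assumed to equal that of the other group. The Yap CKO pair was the tighter one (median SD of log2 values 0.098, against 0.14 in control), and limma called 12.6% of all genes without either control, against 0.0103% and 0.0359% without Yap CKO 1 and Yap CKO 2. Calls from these fits are therefore given as values only. Without control 1, limma called Hoxb4 (log2 0.44, adjusted p = 0.0449), Hoxb7 (1.08, adjusted p = 0.0138) and Hoxb8 (0.92, adjusted p = 0.0122) higher in Yap CKO. Without control 2, the log2 difference of Hoxb4 was -0.13 and that of Hoxb8 was -0.15, and no gene of these 3 was called. Hoxb4, Hoxb8 and Hoxb9 were singled out after their values had been seen. Of the 8 HoxB genes tested, 6 were lowest in control 2, as were 9 of all 17 tested Hox genes (against 30.6% of all genes). That library also held the most heart muscle RNA: the 10 heart markers summed to 42641 normalized counts in control 2 and to 1707 to 9559 in the other 3 libraries, all 10 highest in control 2. The next highest heart sum (9559) was that of Yap CKO 1. This library was the highest of the 4 for 9 of the 17 tested Hox genes (against 21.7% of all genes). The part of carried-over tissue in the HoxB values was not tested.

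Hoxb9 and Hoxd8, the 2 lowest tested Hox genes per kb, were lower in control 1 than in the other libraries, while Hoxb8, of the same paralog group as Hoxd8, was highest there. Hoxb9, of thoracic and more posterior levels, measured 6.78 and 30.4 normalized counts in control 1 and control 2, and 32.7 and 25.2 in Yap CKO 1 and Yap CKO 2. Hoxd8 measured 6.78 and 16.4, and then 16.3 and 12.1. Control 1 was thus lowest for both, as it was for 3 of the 17 tested Hox genes, Hoxa4 included. Hoxb9 had 7 and 26 reads in the controls and 34 and 27 in the Yap CKO libraries. Hoxd8 had only 7 and 14, and then 17 and 13, and the part of counting error in its low control 1 value was not tested. The log2 difference of Hoxb9 was 0.93 (SE 0.66, adjusted p = 0.507) and that of Hoxd8 was 0.38 (SE 0.53, adjusted p = 0.752, limma). Without control 1 these became -0.081 and -0.20. Without control 2, Hoxb9 was at 1.93 (adjusted p = 0.0111, limma), with the spread taken from the Yap CKO pair and with 7 reads in the 1 control left.

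Most markers of the nerves of the lung were lowest in the same library. Tubb3, a neuronal tubulin, measured 14.5 normalized counts in control 1, 80.7 in control 2, and 121 and 62.5 in the Yap CKO libraries. Stmn2, a neuronal stathmin, measured 64.0 in control 1, 246 in control 2, and 259 and 210 in the Yap CKO libraries, and Sox10, a transcription factor of glia, 29.1 in control 1 and 69.0 to 76.9 in the others. Of the 8 markers of lung neurons and glia 6 were lowest in control 1, and none was at 0 in any library. For 2 of the 8 both Yap CKO values lay below both controls (25.0%, against 25.6% of all genes). They lay above them for 1 (12.5%, against 25.2%). The list summed to 722 in control 1 and to 1044 to 1202 in the others. The 9 spinal cord and neural tube markers summed to 80.4 and 195 in the controls and to 555 and 378 in the Yap CKO libraries, with Olig2 and Neurog2 at 0 in all 4. Control 1 also differed from the other 3 libraries in Xist, at 42.6 against 42729 to 50045. In Ddx3y, of the Y chromosome, it stood at 1726 against 5.77 to 16.4. The control pair thus differed within itself in these sex-linked genes, while both Yap CKO libraries were like control 2. The part of nerve content, other tissue or sex in Hoxb9 and Hoxd8 was not tested.

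**Figure D4:**
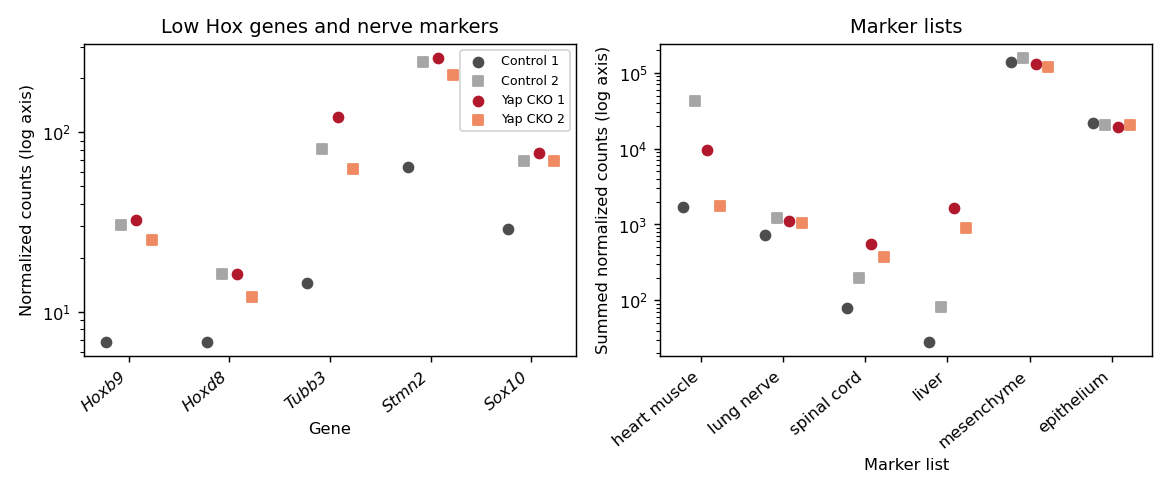
Left, normalized counts (log axis) of Hoxb9, Hoxd8 and 3 nerve markers, 1 point per library; right, summed normalized counts (log axis) of 6 marker lists. Control 1 is lowest for each gene on the left (Hoxb9 6.78, Tubb3 14.5), and control 2 is highest for heart muscle (42641).

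Of the 9 HoxC genes 2 were tested, and both had a higher mean in control. Hoxc4, the highest of that cluster per kb, measured 144 and 99.4 normalized counts in the controls and 105 and 77.4 in the Yap CKO libraries (log2 -0.41, SE 0.27, adjusted p = 0.473, limma). Hoxc5, the third member of paralog group 5, measured 46.5 and 90.0, and then 53.8 and 28.0 (log2 -0.72, SE 0.44, adjusted p = 0.436, limma). The groups overlapped for both genes. In HoxD the Hox gene with the highest level per kb was Hoxd8, given above.

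Replicates of a group spread more in the tested Hox genes than in the median gene. The median SD of log2 values over the 17 tested Hox genes was 0.31 in control and 0.23 in Yap CKO, against 0.14 and 0.098 over all genes tested. Of the 17, 15 were higher in Yap CKO 1 than in Yap CKO 2 (49.8% of all genes), with a median log2 difference of 0.33 between these 2 libraries and a range of -0.12 to 0.92. Control 1 exceeded control 2 for 12 of the 17 (54.4% of all genes), with a median of 0.21 and a range of -2.01 to 1.06. The median log2 difference between groups was 0.062 without control 2, 0.053 when Yap CKO 1 was left out and 0.43 when Yap CKO 2 was, so it moved with single libraries.

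**Figure D5:**
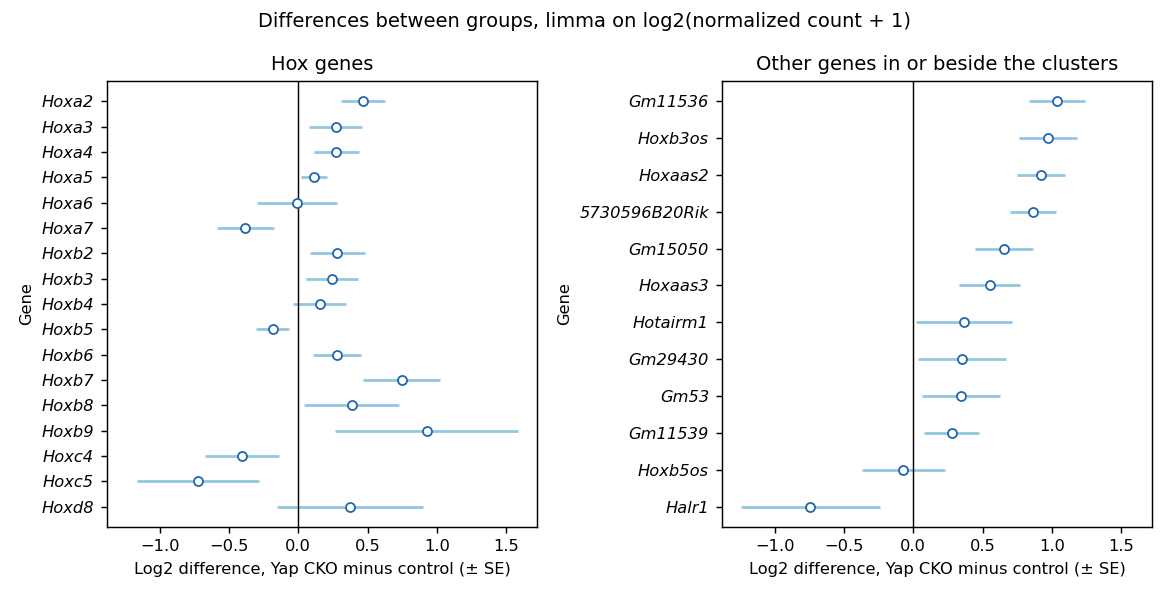
Log2 difference (Yap CKO minus control, limma on log2(normalized count + 1)) with its standard error, for the 17 tested Hox genes on the left and for other tested genes in or beside the clusters on the right; open circles did not pass an adjusted p of 0.05. Hox genes scatter on both sides of 0 (-0.72 to 0.93), while 4 genes at the top right lie between 0.86 and 1.04.

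Noncoding and predicted genes lie between the Hox genes, many of them antisense to a Hox transcript. Of 41 such genes between the cluster ends 10 passed the filter. limma called none, edgeR called none and DESeq2 called 4, all higher in Yap CKO (5.54% of all genes, in either direction). At an unadjusted p under 0.05, 6 of the 10 were higher (against 9.34% of all genes). Both Yap CKO values lay above both controls for 7 of the 10 (70.0%, against 25.2% of all genes) and below them for none (against 25.6%), and the median log2 difference was 0.60. Several of these genes overlap each other or a Hox exon, so they are not independent measurements, and no source used here gives the strand setting of the counting.

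Hoxaas2, antisense to Hoxa3, measured 220 and 167 normalized counts in the controls and 380 and 350 in the Yap CKO libraries. The groups stood well apart (log2 0.92, SE 0.18, adjusted p = 0.0554, limma). DESeq2 gave an adjusted p of 0.00518, limma with libraries scaled to equal totals gave 0.049 and edgeR 0.0622. 5730596B20Rik, which shares exon bases with Hoxa3 as well, measured 203 and 160, and then 340 and 317 (log2 0.86, adjusted p = 0.0592 in limma, 0.0116 in DESeq2). Hoxa3 itself, with 27.1% of its exon bases shared with these and 3 other genes, had a log2 difference of 0.27 and overlapping groups.

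Hoxb3os, antisense to Hoxb3 and Hoxb2, measured 116 and 85.4 normalized counts in the controls and 189 and 204 in the Yap CKO libraries, without overlap (log2 0.97, SE 0.21, adjusted p = 0.0769 in limma, 0.0358 in DESeq2). Gm11536 lies in an intron of Hoxb3 and shares no exon base with a Hox gene. It measured 91.1 and 73.7, and then 179 and 160 (log2 1.04, SE 0.20, adjusted p = 0.0591 in limma, 0.0274 in DESeq2). Gm15050, in HoxA and without shared bases, measured 159 and 119, and then 241 and 196 (log2 0.65, adjusted p = 0.171, limma). In these 3 genes both Yap CKO libraries exceeded both controls. Without control 1 limma called 7 of the 10 genes and without control 2 it called 4 (12.6% of all genes in each). Without Yap CKO 1 or Yap CKO 2 it called none (0.0103% and 0.0359% of all genes). The log2 differences of Gm11536 and Hoxb3os ran from 0.75 to 1.19 over these 4 fits. Gm11536, Gm15050, 5730596B20Rik and Hoxaas3 were singled out after their values had been seen.

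The data held 16 named noncoding genes of the clusters, of which 6 were tested. Hoxaas2, Hoxaas3, Hoxb3os and Hoxb5os are also among the 10 tested genes between the cluster ends, so the sets overlap. limma called none of the 6, edgeR called none and DESeq2 called 2 (5.54% of all genes, in either direction). At an unadjusted p under 0.05 in limma, 3 of the 6 were higher (against 9.34% of all genes). Without control 1 limma called 4 of these 6 higher and without control 2 it called 2, Hoxaas2 and Hoxb3os (12.6% of all genes in each), and it called none without either Yap CKO library. Hoxaas3 measured 193 and 131 normalized counts in the controls and 248 and 220 in the Yap CKO libraries (log2 0.55, adjusted p = 0.245, limma). Hotairm1, at the 3′ end of HoxA, measured 168 and 84.2, and then 181 and 130, with overlap. Hottip and Hotair, which lie at the 5′ end of HoxA and in HoxC, had 0 reads in all 4 libraries, as did Mir196b, Mir196a-2 and Mir615.

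The miR-10 genes lie beside the group 4 Hox genes of HoxB and HoxD, and their mature RNAs are shown because 1 base sets them apart while only the HoxB copy had reads. Both sequences, from RefSeq on GRCm38.p6, are 23 bases long and are printed 5′ to 3′ with the seed (bases 2 to 8) in capitals. They share the seed, and miR-10b differs from miR-10a by U12A, counted from the 5′ end. Their positions are chr11:96317186-96317208 for miR-10a and chr2:74726074-74726096 for miR-10b, both on the plus strand.
mmu-miR-10a-5p: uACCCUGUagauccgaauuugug
mmu-miR-10b-5p: uACCCUGUagaaccgaauuugug
Mir10a had 6 and 5 reads in the controls and 16 and 12 in the Yap CKO libraries (5.81, 5.85, 15.4 and 11.2 normalized counts), and its mean was under the filter. Mir10b had 0 reads in all 4, and its neighbour Hoxd4 had 13 reads over the 4 libraries. These libraries were not made for small RNA, so the reads describe the hairpin locus and not the mature miRNA.

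The genes that control or assist Hox proteins were read from lists written from textbook knowledge, with earlier results of these data known. The TALE homeodomain cofactors (PBX, MEIS, PREP and TGIF), which bind DNA with HOX proteins, were all tested, and limma called none of 11. At an unadjusted p under 0.05 in limma, 1 was higher and 2 were lower (against 9.34% and 9.52% of all genes). The median log2 difference of the 11 was 0.0037, edgeR called none and DESeq2 called Meis1 (5.54% of all genes). Meis1 measured 3745 and 3343 normalized counts in the controls and 5201 and 4943 in the Yap CKO libraries. The groups stood apart (log2 0.52, SE 0.098, adjusted p = 0.055, limma), and the adjusted p was 0.0429 with equal totals and 0.000192 in DESeq2. limma also called Meis1 without control 1 and without control 2 (12.6% of all genes in each), but not without either Yap CKO library, and its log2 difference ran from 0.44 to 0.60 in these fits. Pknox2 (PREP2) had a log2 difference of -0.35 (adjusted p = 0.178, limma).

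Retinoic acid activates the 3′ Hox genes. Of 17 tested genes of its synthesis, breakdown and response limma called 1, which fell (against 1.15% of all genes called lower). Aldh1a1, a retinaldehyde dehydrogenase that makes retinoic acid, measured 538 and 519 normalized counts in the controls and 184 and 260 in the Yap CKO libraries (log2 -1.27, SE 0.19, adjusted p = 0.0274, limma). For 9 of the 17 genes both Yap CKO values lay below both controls (52.9%, against 25.6% of all genes), for 3 they lay above (17.6%, against 25.2%), and the median was -0.23. Hoxa2, Hoxb2, Hoxa3 and Hoxb3, the tested Hox genes nearest the 3′ ends of HoxA and HoxB, had log2 differences of 0.24 to 0.47. None of them was called. Hoxb1 and Hoxd1, of paralog group 1, had 13 and 12 reads over the 4 libraries and were below the filter. Leaving out Yap CKO 1 or Yap CKO 2 left no called gene in this list, with Aldh1a1 at -1.02 and -1.52. Without control 1 limma called 2 genes lower, Aldh1a1 and Aldh1a2, and without control 2 it called 4, Aldh1a1 among them (12.6% of all genes in each).

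The caudal and ParaHox genes, relatives of the Hox clusters, were low. Cdx2, the caudal gene of the intestine that also acts upstream of posterior Hox genes, had 0 reads in both controls and 35.6 and 6.52 normalized counts in Yap CKO 1 and Yap CKO 2. The Yap CKO mean was 6.56 times a floor of 3 reads in each control, but the 2 Yap CKO values lay far apart (adjusted p = 0.0793, limma). With Yap CKO 2 alone the ratio was 2.03. These ratios leave out counting error in the Yap CKO reads, which were 37 and 7. The log2 difference was 4.05 without either control, where limma called Cdx2 along with 12.6% of all genes, and 2.91 and 5.19 without Yap CKO 1 and Yap CKO 2, where it did not. Pdx1, of pancreas and duodenum, had 0 reads in both controls and 19.2 and 9.32 normalized counts (20 and 10 reads) in Yap CKO. Its Yap CKO mean was 4.45 times the same floor (2.91 times with Yap CKO 2 alone), and it was below the filter. The 8 intestine markers summed to 10.7 and 10.5 normalized counts in the controls and to 1888 and 1357 in Yap CKO, and the 8 liver markers to 28.1, 83.0, 1640 and 900.4. Their part in the Cdx2 and Pdx1 values was not tested. No Hox gene of groups 10 to 13, those used in the hindgut, exceeded 10 reads in all 4 libraries together.

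Polycomb complexes keep Hox genes silent and MLL complexes keep them active. limma called none of 22 Polycomb genes (median log2 difference 0.019), and edgeR and DESeq2 called none. At an unadjusted p under 0.05 in limma, 3 of the 22 were lower and 0 higher (against 9.52% and 9.34% of all genes). The smallest p-values were those of Cbx2, at a log2 difference of -0.31 (adjusted p = 0.153, limma), and Phc2, at -0.26 (adjusted p = 0.187, limma). Of 12 MLL and trithorax genes limma, edgeR and DESeq2 called none (median 0.0096). At an unadjusted p under 0.05 in limma, 2 of the 12 were lower (against 9.52% of all genes). Men1, the menin subunit, was at -0.29 (adjusted p = 0.225) and Wdr5, a shared core subunit, at -0.24 (adjusted p = 0.231, limma). Kdm6a measured 1790 and 2605 normalized counts in control 1 and control 2, and 2201 and 2538 in the Yap CKO libraries. It was thus lowest in control 1, the library that also stood apart in Xist (42.6). The part of sex in the Kdm6a values was not tested. Without control 2 limma called 1 gene of these lists, Kdm6a, higher (12.6% of all genes).

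Genes that flank the clusters were tested as neighbours outside them. For 8 of 15 tested both Yap CKO values lay above both controls (53.3%, against 25.2% of all genes) and for 2 below (13.3%, against 25.6%). limma called none of the 15 (median log2 difference 0.076), edgeR called none and DESeq2 called Hnrnpa1 (5.54% of all genes). At an unadjusted p under 0.05 in limma, 1 of the 15 was higher (against 9.34% of all genes). Hnrnpa1, an RNA-binding protein gene near HoxC, had a log2 difference of 0.36 (adjusted p = 0.112, limma), and Snx11, a sorting nexin gene near HoxB, one of 0.37 (adjusted p = 0.28, limma). Both were called higher without control 2, and Hnrnpa1 and Cbx1 without control 1 (12.6% of all genes in each).

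Signals of the lung mesenchyme and of branching held 3 called genes among 12 (25.0%, against 2.33% of all genes). The list was chosen with earlier results of these data known, so this share is no measure of an excess. Fgf10, the mesenchymal growth factor that draws out lung buds, rose by 1.07 on the log2 scale (SE 0.12, adjusted p = 0.0146, limma), from 1192 and 973 normalized counts to 2290 and 2232. Bmp4 rose by 0.50 (SE 0.090, adjusted p = 0.0483, limma), from 1097 and 1074 to 1554 and 1519. Shh, the epithelial signal to the mesenchyme, fell by 1.86 (SE 0.23, adjusted p = 0.0181, limma), from 1069 and 906 to 212 and 345. Without either Yap CKO library limma called none of these 3, and it then called 2 and 7 of all genes. Their log2 differences stayed near the values above, at 1.05 and 1.09 for Fgf10, 0.49 and 0.52 for Bmp4, and -1.51 and -2.21 for Shh. Without control 2 limma called 6 of the 12, adding Lef1, Ptn and Wnt2 (12.6% of all genes). Of the 11 lung epithelium markers, all detected in every library, 9 had a log2 difference below 0, while 49.4% of all genes were above 0. The median of the 11 was -0.25. Both Yap CKO values lay below both controls for 6 (54.5%, against 25.6% of all genes) and above them for 1 (9.09%, against 25.2%). Sox2, of the airway epithelium, fell by 0.91 (adjusted p = 0.0286, limma), and Sftpc, of distal epithelium, rose by 0.97 (adjusted p = 0.00909, limma). The part of epithelial content in the Shh value was not tested. Beside these changes, Hoxa5 and Hoxb5, the most abundant Hox genes of the lung, differed between groups by 0.11 and -0.18, and neither was called.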

How the data were processed

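Per the labels, total RNA of whole lung was extracted with RNeasy Mini columns and libraries followed standard BGI protocols. The authors deposited 1 table of normalized read counts, a non-negative signal for each of 52636 Ensembl genes. The submitters' processing notes name mm10, edgeR 3.18.1, DESeq 1.16.0, featureCounts 1.5.0-p1 and Bowtie2 2.2.9, without their roles. The annotation release and strand setting are not given in the sources used here. Values were whole reads divided by 1 factor per library (1.0319, 0.8551, 1.0401 and 1.0728). 100% of values came out within 0.001 of a whole read, and totals were 21285794, 17756301, 20552208 and 21333878 reads (control 1 and 2, Yap CKO 1 and 2).

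Groups came from sample titles. The 19472 genes with a mean of at least 10 were tested on log2(value + 1), which understates changes of low genes, with limma 3.58.1 (R 4.3.3, intensity trend, two-sided, Benjamini-Hochberg over all of them, 2 residual degrees of freedom plus 4.54 from the other genes). The count tests edgeR 4.0.16 and DESeq2 1.42.0 were run on the recovered reads as alternatives: edgeR called 404 genes and DESeq2 1037, against 454. The fits were tested on simulated data. Exon lengths came from GENCODE M21.

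Members and gene lists were chosen with earlier results of these data known. Statistics are given for tested members with an adjusted or unadjusted p under 0.05, the highest per kb of each cluster, the group 5 genes, and of each list the called members or the 2 smallest p; exceptions are named in the text. Alternatives were other pseudocounts, filters, scalings and tools, a replicate block, leaving out each library, and, chosen after seeing the data, a crossed block and lengths without shared bases. Proteins were not used here, and some genes are not reported here.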

Additional observations from a re-analysis of the deposited data

How the results depend on the processing

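No tested Hox gene was called under any alternative that kept all 4 libraries, where the smallest adjusted p of a Hox gene ran from 0.146 to 0.314. Leaving out 1 library gave 0 to 3 Hox genes called higher, a median log2 difference of 0.053 to 0.43 for all tested Hox genes, and of 0.022 to 0.39 for HoxA. Hoxd8 ran from -0.20 without control 1 to 0.95 without control 2, and Hoxb9 from -0.081 to 1.93. Hoxb4 ran from -0.13 without control 2 to 0.44 without control 1, and Hoxb8 from -0.15 to 0.92. The cause was not tested. Over all genes 231 were called higher and 223 lower. These counts became 39 and 17 without the filter, where 33288 genes were tested, 5 and 1 without the intensity trend, and 441 and 596 in DESeq2. Leaving out 1 library gave 0 to 1258 higher and 2 to 1262 lower. Of the related lists 2 genes were called higher and 2 lower. Without the filter and without the intensity trend 0 were called in either direction. Equal totals and quantile scaling called 4 higher each and DESeq2 called 7. Leaving out 1 library gave 0 to 11 higher and 0 to 6 lower. Equal totals moved the median of all genes to 0.057, and with it, with quantile scaling, edgeR or DESeq2, 13 of the 17 Hox genes were above 0 instead of 12. Other pseudocounts, a filter at 50 and TMM, which equalled the deposited scaling, changed no call of a Hox gene.

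The labels number the replicates but do not say that a number pairs libraries. Deviations from the group means of same-numbered libraries correlated at -0.364 across genes. With a replicate block 342 genes were called, none of them a Hox gene, and 1 gene of the related lists was called higher, since Bmp4 was no longer called. With the crossed pairing, added after seeing the data, 432 genes were called higher and 540 lower, 0 of them Hox genes, and 8 genes of the related lists were called higher. With 2 libraries per group, only differences that are large against the spread between replicates can pass.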
